A study of Mus musculus with 70 samples.

Results

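The 9 genes described here carry the signal of the beta-adrenergic receptor into the cell: the beta-arrestins Arrb1 and Arrb2, the stimulatory G protein alpha subunit Gnas, the adenylyl cyclase Adcy7, the catalytic subunit of protein kinase A Prkaca, the cAMP phosphodiesterases Pde4a, Pde4b and Pde4d, and the cAMP-responsive transcription factor Crem. They were named by gene, with no threshold on a measured value, but the choice was made with earlier results of these data known, and all 9 were found by Ensembl identifier among the 52636 genes of the count table. RNA was measured in sorted leukocytes of C57BL/6J mice, in 70 libraries of which 68 were used. The methods give 7 to 8 weeks as the age of the mice for the defeat, before the blood was taken. Stressed males had met chronic social defeat stress (CSDS) for 10 days, in which a larger CD-1 male attacks the mouse each day. They were then split by a social interaction (SI) test into susceptible (SUS, SI ratio below 1) and resilient (RES, SI ratio of 1 or above) animals, and unstressed controls (CON) were housed in pairs across a partition. The sort by surface markers gave T cells, B cells and the Ly6C-high and Ly6C-low kinds of monocyte, with 6 libraries in each of the 12 groups except for 4 CON libraries of Ly6C-low monocytes and, after the exclusions, 5 RES libraries each of B cells and T cells. No mouse is named for a library, so cell types were treated as independent samples, and whether mice were pooled is not given in the sources used here.

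Noradrenaline and adrenaline reach blood leukocytes from sympathetic nerves and the adrenal gland. The occupied beta receptor switches on the stimulatory G protein, which drives adenylyl cyclase to make cAMP. cAMP frees the catalytic subunit of protein kinase A, phosphodiesterases break cAMP down, receptor kinases and beta-arrestins shut the receptor off, and factors of the CREB and CREM family carry the signal to genes. In leukocytes a rise of cAMP is known to dampen the release of inflammatory cytokines, and the type 4 phosphodiesterases are a main brake on it.

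Total counts per library ranged from 19769835 to 67038231. The labels give brain as the source and the study's methods give blood, and the methods were followed. The 4 gates carried their own markers. Ccr2, a chemokine receptor of Ly6C-high monocytes, stood at 817 to 3361 CPM (read counts scaled by library size) in that gate and at most 448 CPM elsewhere, and the summed level of 4 genes of Ly6C-low monocytes (Ace, Eno3, Pglyrp1, Treml4) was 2832 to 4156 CPM in that gate and at most 472 CPM elsewhere. Cd79a, a chain of the B cell receptor complex, stood at 1166 to 1883 CPM over the B cell libraries used and at most 15.7 CPM in the others, and the summed level of the 4 T cell genes (Cd3e, Cd3d, Cd3g, Lck) was 1313 to 1971 CPM over the T cell libraries and at most 97.4 CPM elsewhere. The monocyte gates also held genes of other cells. The summed level of 4 NK cell genes (Ncr1, Klrb1c, Gzma, Prf1) was 245 to 826 CPM in CON, 339 to 905 in SUS and 493 to 1345 in RES libraries of Ly6C-low monocytes, against at most 37.9 CPM in Ly6C-high monocytes. The summed level of 5 neutrophil genes (Camp, Cxcr2, Ltf, Ly6g, Ngp) was 1.26 to 354 CPM in CON, 19.3 to 1176 in SUS and 6.08 to 614 in RES libraries of Ly6C-high monocytes, against at most 16.0 CPM in Ly6C-low monocytes. The part of these levels in the differences between the monocyte types and between conditions was not tested. A pair of libraries went against their labels and were left out: library 52, labelled RES B cells, held 412 CPM of Cd3e and 5.75 CPM of Cd79a, and library 70, labelled RES T cells, held 1417 CPM of Cd79a and 0.143 CPM of Cd3e. Hemoglobin and other red cell genes had higher medians in stressed mice in all 4 cell types. The summed level of 6 red cell genes was 343 to 1215 CPM in CON, 1097 to 8987 CPM in SUS and 1077 to 4348 CPM in RES libraries of Ly6C-high monocytes. In the same order it was 295 to 1259, 859 to 2691 and 877 to 3918 CPM in Ly6C-low monocytes. Its part in the results below was not tested except through a model with this level as a covariate, whose values stand beside the stress results of the monocytes. It was not run for the interaction. The p-values measure only the spread between libraries, and in sorted bulk samples fewer cells of a kind and less RNA per cell cannot be told apart.

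The genes lie on 8 chromosomes of GRCm38. Arrb1 (ENSMUSG00000018909) lies at chr7:99535466-99606771, Arrb2 (ENSMUSG00000060216) at chr11:70432635-70440828, Gnas (ENSMUSG00000027523) at chr2:174284320-174346744, Adcy7 (ENSMUSG00000031659) at chr8:88272403-88329962 and Prkaca (ENSMUSG00000005469) at chr8:83972993-83996443. Pde4a (ENSMUSG00000032177) lies at chr9:21165714-21213248, Pde4b (ENSMUSG00000028525) at chr4:102087543-102607259, Pde4d (ENSMUSG00000021699) at chr13:108449948-109953461 and Crem (ENSMUSG00000063889) on chromosome 18. Of these only Crem is on the minus strand.

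How reads were assigned matters for Gnas. Of 227 annotated genes with at least 300 exon bases that lie wholly inside exons of genes on the opposite strand, 216 had no read in any library, against 160 of 166 genes that lie wholly inside exons on their own strand. The share over all genes was not taken, so silent genes and reads left uncounted over such overlaps were not told apart. Gnas shares exons with 2 genes on the other strand, Nespas and Gm20721. Gm20721 covers 96.9% of the Gnas coding bases within its span, 1142 of 1178. Over the whole gene 22.0% of exon bases are shared. If reads over shared bases were left uncounted, the Gnas values below come mostly from the remaining exon bases and understate the gene's RNA. Crem shares 8.0% of its exon bases with other genes, Arrb2 2.2%, and the other 6 genes none.

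CREB and CREM are known to bind the cAMP response element, whose full letters are TGACGTCA and whose shorter form is TGACG. Promoter windows of 300 bases (250 before and 50 after a start site, RefSeq, GRCm38.p6) were used for 6 of the 9 genes, with 17 windows in all. Windows on the chromosome of Crem were left out, so Crem itself was not examined for these motifs. None of the 17 held TGACGTCA on either strand, and 588 of 32851 windows of all genes did (1.79%). TGACG, counted on both strands and also where it is part of the longer motif, was found in 7 of the 17 windows (41.2%) and in 20.8% of all windows. The windows of 1 gene can overlap, as a pair of the 3 Gnas windows with TGACG did. The windows with TGACG are shown for Pde4b, the 1 member that passed in a stress comparison, and for Prkaca, whose window was the only 1 of the 17 with TGACG at more than 1 place. Capitals mark TGACG read on the opposite strand, as CGTCA. The Pde4b window is chr4:102421305-102421604 and the Prkaca window chr8:83972728-83973027, both on the plus strand.
Pde4b: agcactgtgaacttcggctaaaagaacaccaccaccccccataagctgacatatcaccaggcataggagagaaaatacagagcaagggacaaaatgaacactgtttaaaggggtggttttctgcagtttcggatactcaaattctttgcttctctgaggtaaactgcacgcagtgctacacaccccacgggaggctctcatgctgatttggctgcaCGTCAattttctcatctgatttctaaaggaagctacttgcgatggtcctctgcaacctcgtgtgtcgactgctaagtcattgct
Prkaca: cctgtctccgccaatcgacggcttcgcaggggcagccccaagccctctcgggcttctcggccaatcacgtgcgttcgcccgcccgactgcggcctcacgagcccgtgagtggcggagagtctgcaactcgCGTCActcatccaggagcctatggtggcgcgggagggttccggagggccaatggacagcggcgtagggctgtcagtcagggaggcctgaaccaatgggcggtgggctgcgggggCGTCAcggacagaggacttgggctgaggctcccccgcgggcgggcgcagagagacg
The Pde4b match begins 34 bases before the start site, and the Prkaca matches begin 120 and 6 bases before it. The other 3 Pde4b windows and the other Prkaca window held neither motif.

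The first question was where each gene is used. Levels are given as CPM for 1 gene across libraries, and as CPM per kb of exon where genes are compared. In unstressed mice Arrb2 and Adcy7 had the highest length-scaled levels in Ly6C-high monocytes (40.7 ± 1.99 and 39.8 ± 5.10 CPM per kb, SD, n = 6) and in T cells (47.2 ± 3.98 and 45.6 ± 3.73 CPM per kb, n = 6), and in both cell types the ranges of these 2 genes overlapped. In Ly6C-low monocytes Adcy7 stood alone at 92.8 ± 7.32 CPM per kb (n = 4), above Arrb2 at 38.9 ± 4.04. In B cells Adcy7 led with 29.5 ± 3.48 CPM per kb (n = 6), followed by Pde4b, Arrb2 and Prkaca at 20.7 ± 1.49, 17.8 ± 3.26 and 15.4 ± 2.23 CPM per kb. The range of Adcy7 lay apart from that of Pde4b, while Pde4b overlapped with Arrb2 and Arrb2 with Prkaca. The low end of the order was held by Crem (0.437 to 0.981 CPM per kb as group means), by Pde4d outside T cells (0.126 to 0.266) and by Pde4a in T cells (0.108 ± 0.101). In both monocyte types the ranges of Pde4a and Gnas, of Gnas and Crem and of Crem and Pde4d overlapped.

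**Figure D1:**
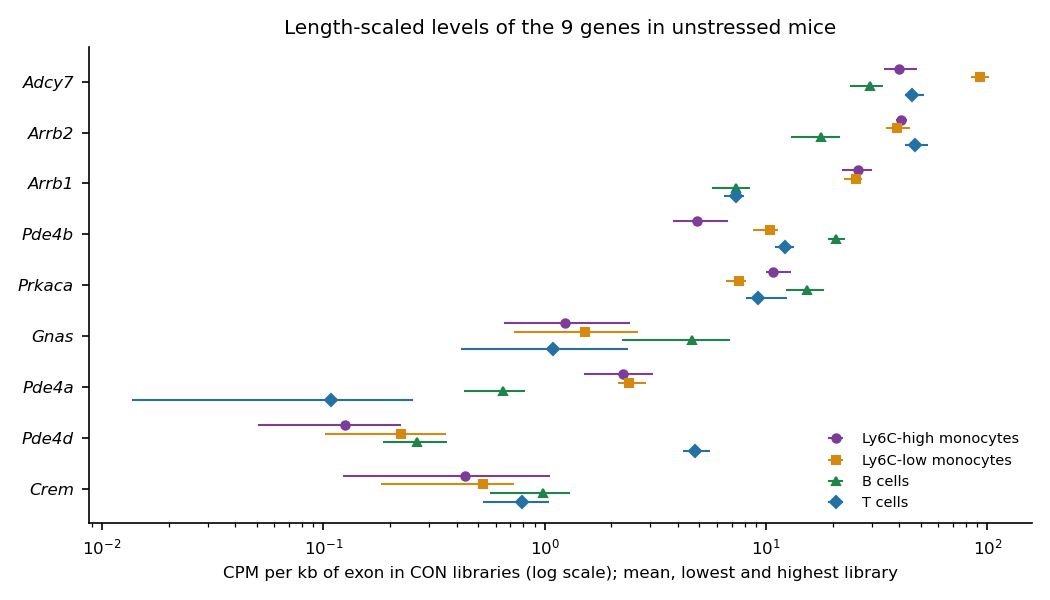
CPM per kb of exon (log scale) of the 9 genes in CON libraries of the 4 cell types. Points are means over 4 to 6 libraries and lines run from the lowest to the highest library. Pde4d stands at 4.76 CPM per kb in T cells against 0.126 to 0.266 elsewhere, and Pde4a is lowest in T cells.

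Cell types of CON mice were compared in pairs in a fit of the CON libraries, with edgeR's quasi-likelihood test and Benjamini-Hochberg adjustment over 21032 genes. "Passed" means an adjusted p under 0.05. Between the 2 monocyte types 3 of 9 genes passed, where 19.3% of all genes did. Between Ly6C-high monocytes and B cells all 9 passed (47% of all genes), and between Ly6C-high monocytes and T cells 4 passed (45.7%). Between Ly6C-low monocytes and B cells 7 passed (42.5%), between Ly6C-low monocytes and T cells 4 (39.4%), and between B cells and T cells 7 (31.4%). The pairs share libraries, so the 6 counts are not separate tests.

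The beta-arrestins, which uncouple and internalize the receptor, split the cell types in different ways. Arrb1 was higher in monocytes. Its CON libraries ran from 247 over 293 to 338 CPM (lowest, median and highest library) in Ly6C-high monocytes and stood at 250.2, 289, 292 and 304 CPM in Ly6C-low monocytes. In B cells they ran from 63.9 over 85.1 to 94.1 CPM and in T cells from 72.2 over 82.7 to 89.0 CPM. No monocyte library reached down to a lymphocyte library. The difference was 1.87 ± 0.10 on the log2 scale (± SE) between Ly6C-high monocytes and B cells (adjusted p = 1.27e-14) and 1.84 ± 0.10 against T cells (adjusted p = 1.47e-14, edgeR). Arrb2 was lowest in B cells, at 36.9 over 48.5 to 61.7 CPM, against 109 over 115 to 123 CPM in Ly6C-high monocytes and 120.1 over 132 to 153 CPM in T cells. The 4 CON libraries of Ly6C-low monocytes held 99.5, 107, 109.9 and 127 CPM. No B cell library reached the range of another cell type. The log2 difference of B cells minus T cells was -1.45 ± 0.107 (adjusted p = 1.64e-11) and that of Ly6C-high monocytes minus B cells 1.24 ± 0.106 (adjusted p = 1.73e-10). Arrb2 did not pass between T cells and either monocyte type (adjusted p = 0.107 for Ly6C-high and adjusted p = 0.0721 for Ly6C-low).

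Adcy7, a cyclase isoform known for its high expression in blood cells, had the largest log2 difference of the 9 genes between the monocyte types. The 4 CON libraries of Ly6C-low monocytes held 568, 609, 636 and 685 CPM, and those of Ly6C-high monocytes 230.0 over 266 to 323 CPM. The ranges did not overlap, and the log2 difference of Ly6C-high minus Ly6C-low was -1.23 ± 0.101 (adjusted p = 8.89e-10, edgeR). T cells held 286 over 296 to 349 CPM, and B cells 161 over 198 to 227 CPM. Of the other cyclases listed, Adcy3 had the highest length-scaled level over the 12 groups, 2.44 CPM per kb, with 22.1% of its exon bases shared with the neighbouring Cenpo.

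Gnas was highest in B cells, at 25.1 over 57.1 to 77.0 CPM, and lower in Ly6C-high monocytes, at 7.35 over 11.6 to 27.2 CPM. The log2 difference of Ly6C-high monocytes minus B cells was -1.89 ± 0.429 (adjusted p = 0.00105), and the ranges overlapped. B cells exceeded T cells by 2.07 ± 0.433 (adjusted p = 0.000774, edgeR), and these ranges overlapped as well. The share of counts on the ribosomal RNA-like genes Gm23935 and Gm26917 was 11.1 to 32.6% in the CON libraries of B cells. It was 4.75 to 30.3% in T cells, 0.739 to 8.03% in Ly6C-high and 0.467 to 10.9% in Ly6C-low monocytes. Its part in these Gnas differences was not tested. Gnas spread widely within a cell type, from 4.67 to 26.6 CPM over the CON libraries of T cells. Gnas in Ly6C-low monocytes passed against B cells (-1.57 ± 0.491, adjusted p = 0.0134), a call lost without CON library 24 (-1.34, adjusted p = 0.0512). Prkaca varied less between cell types: its CON means were 38.3 ± 5.54 CPM in B cells, 26.8 ± 2.75 in Ly6C-high monocytes, 22.9 ± 4.11 in T cells and 18.7 ± 1.76 in Ly6C-low monocytes. It passed between the 2 monocyte types, with a log2 difference of 0.51 ± 0.153 (adjusted p = 0.0170). That call was lost without CON library 29 of the Ly6C-low monocytes (0.47, adjusted p = 0.0583).

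The 3 phosphodiesterases of the type 4 family each had another order of cell types. Pde4b was highest in B cells (201 over 217 to 241 CPM), lower in T cells (116 over 128 to 142 CPM) and Ly6C-low monocytes (92.4, 113, 114 and 119.9 CPM) and lowest in Ly6C-high monocytes (40.3 over 45.4 to 70.8 CPM). No Ly6C-high library reached the range of another cell type. The log2 difference of Ly6C-high monocytes was -2.05 ± 0.126 against B cells (adjusted p = 2.01e-13), -1.32 ± 0.123 against T cells (adjusted p = 7.57e-10) and -1.10 ± 0.133 against Ly6C-low monocytes (adjusted p = 6.08e-07, edgeR). T cells and Ly6C-low monocytes are neighbours in this order whose ranges overlapped (adjusted p = 0.214). Pde4d was highest in T cells, at 50.7 over 55.9 to 67.3 CPM, against at most 4.34 CPM in any CON library of another cell type. The log2 difference of B cells minus T cells was -4.20 ± 0.312 (adjusted p = 1.96e-11). Pde4a had CON means of 17.2 ± 4.61 and 18.4 ± 2.45 CPM in Ly6C-high and Ly6C-low monocytes and 4.98 ± 1.21 CPM in B cells, and was lowest in T cells at 0.828 ± 0.776 CPM, where the CON libraries held 5 to 73 reads. Its log2 difference between Ly6C-high monocytes and T cells was 4.41 ± 0.463 (adjusted p = 7.45e-09).

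Crem, whose short isoforms are known as cAMP-induced repressors, was low in every cell type, at 0.721 to 7.67 CPM over the CON libraries. It passed in 1 pair, Ly6C-high monocytes against B cells (-1.13 ± 0.447, adjusted p = 0.0386), with overlapping ranges. That call was lost without any 1 of CON libraries 1, 13, 16, 35, 44, 47 or 50, at adjusted p-values of 0.0814, 0.0642, 0.0845, 0.0713, 0.0617, 0.0536 and 0.0690.

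**Figure D2:**
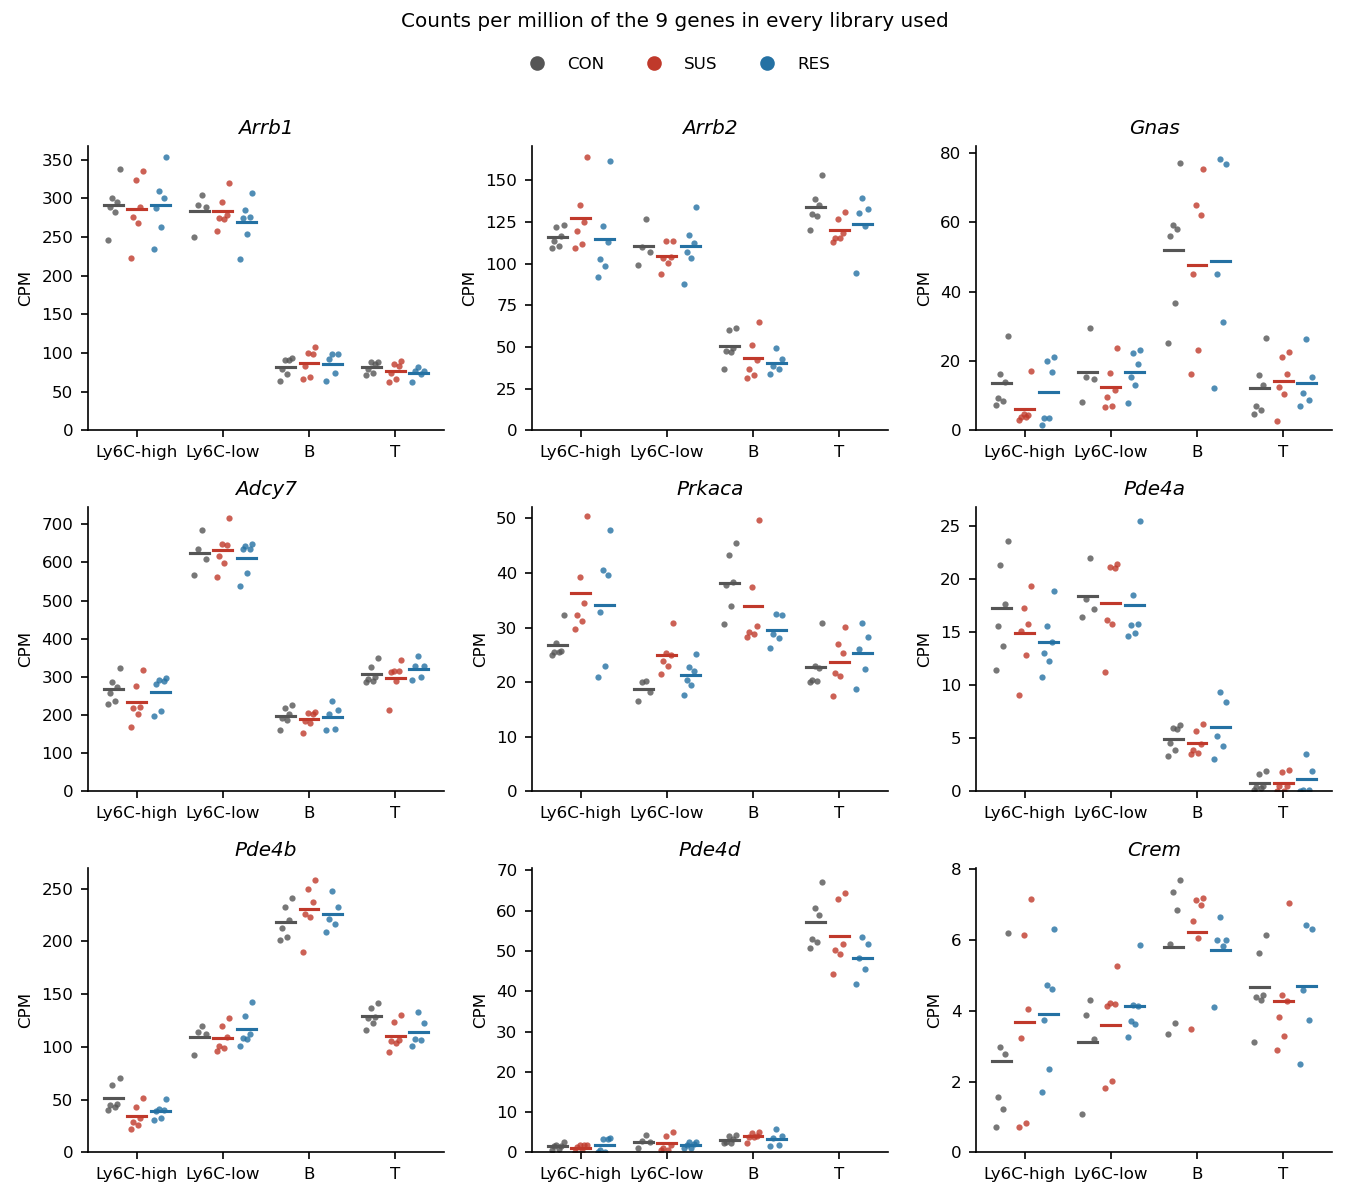
CPM of each of the 9 genes in the 68 libraries used, by cell type and condition (CON grey, SUS red, RES blue). Points are libraries and bars are group means. The cell types lie further apart than the conditions for Arrb1, Adcy7, Pde4a, Pde4b and Pde4d, while Crem and Gnas spread widely within groups.

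The left-out libraries also differed from their labelled group in the members. Library 52, labelled RES B cells, held 41.4 CPM of Pde4d and 93.3 CPM of Pde4b, where the 5 RES B cell libraries used held 1.70 to 5.79 and 209 to 248 CPM and the 5 RES T cell libraries 41.7 to 53.6 and 101 to 133 CPM. Library 70, labelled RES T cells, held 198 CPM of Pde4b, 7.64 CPM of Pde4a and 12.9 CPM of Pde4d. Of Pde4a the RES B cell libraries held 3.05 to 9.33 CPM and the RES T cell libraries 0.0802 to 3.55 CPM.

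The receptors upstream set the frame. Adrb1, the beta-1 receptor, was found in Ly6C-low monocytes at 13.4 to 28.4 CPM in CON libraries. Its highest CON library stood at 0.358 CPM in Ly6C-high monocytes, 0.187 CPM in B cells and 6.26 CPM in T cells. Adrb3 had at most 19 reads in any library. Downstream of the receptors the genes with the highest length-scaled level of their lists, as a mean over the 12 groups, were Grk2, a receptor kinase (114 CPM per kb), the inhibitory alpha subunit Gnai2 (236), the regulatory subunit of protein kinase A Prkar1a (51.4), the anchoring protein Akap13 (54.5), the CREB coactivator Crebbp (29.1) and the immediate-early factor Nr4a1 (90.8). Among other Gs-coupled receptors, EPAC exchange factors and other phosphodiesterases these were Ptgir (10.7), Rapgef4 (3.59) and Pde7a (8.37). These means cover unlike cell types for some genes. In CON libraries Nr4a1 stood at 1.19, 2.49, 269.6 and 83.7, Ptgir at 0.721, 0.0301, 18.8 and 24.6 and Rapgef4 at 7.89, 5.95, 0.0196 and 0.175 CPM per kb (T cells, B cells, Ly6C-low and Ly6C-high monocytes in turn).

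The second question was whether CSDS changed these genes in SUS or RES mice. Each cell type was fitted on its own over CON, SUS and RES, and p-values were adjusted over all genes tested. All 9 genes passed the low-count filter in every cell type. In Ly6C-high monocytes 1 of the 9, Pde4b, passed between SUS and CON mice, where 12.6% of 16955 genes did (1488 higher and 651 lower in SUS, or 69.6% higher, against 59.1% with the size factors of DESeq2). The share of the members, 1 of 9, is close to that background. The median log2 fold change was -0.23 over the 9 genes and -0.05 over all genes. Between RES and CON mice 0 of 9 passed (1 at an unadjusted p under 0.05, 0 with DESeq2) against 4.97% of all genes (842), and between SUS and RES mice 0 of 9 (0 at an unadjusted p under 0.05, 0 with DESeq2) against 0.0059%. The comparisons with CON share the CON libraries. Both counts over all genes moved with single libraries. The 2139 SUS calls became 1412 without CON 1 and 1418 without SUS 14. The 842 RES calls became 108 without RES 18, 126 without RES 9, 151 without CON 1, 229 without RES 15, 278 without CON 7, 402 without CON 16, 402 without CON 4, 421 without CON 10 and 1353 without RES 3.

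Pde4b, which hydrolyses cAMP, fell in SUS mice. CON libraries held 40.3 over 45.4 to 70.8 CPM, SUS libraries 22.0 over 31.1 to 51.9 CPM and RES libraries 30.3 over 39.8 to 50.4 CPM. In SUS mice 4 of 6 libraries lay below the lowest CON library, the remaining 2 lay within the CON range, and so the groups overlapped. RES libraries 9, 15 and 3 also lay below the lowest CON library, at 30.3, 32.3 and 39.1 CPM, and the other RES libraries within the CON range. Mean levels in CON, SUS and RES were 51.4 ± 12.7, 34.2 ± 11.2 and 39.0 ± 7.17 CPM (SD, n = 6 each). SUS minus RES on the log2 scale was -0.22 ± 0.20 (± SE, adjusted p = 0.999, edgeR). SUS libraries differed from CON libraries by -0.63 ± 0.20 on the log2 scale, or 0.646-fold (adjusted p = 0.0395, edgeR), and RES libraries differed by -0.41 ± 0.20 (adjusted p = 0.234). With the red cell level as a covariate the SUS difference was -0.31 and did not pass (adjusted p = 0.925), in a model that called 1 gene in all in place of 2139. It also missed the threshold with no filter on low counts (-0.63, adjusted p = 0.0502) and in a fit of only SUS and CON libraries (-0.64, adjusted p = 0.0535). The call was also lost without any 1 of 6 libraries. Without CON library 1, 10 or 16 the log2 fold changes were -0.67, -0.51 and -0.53 (adjusted p = 0.0530, 0.103 and 0.121). Without SUS library 2, 8 or 14 they were -0.57, -0.58 and -0.56 (adjusted p = 0.0895, 0.0895 and 0.0817).

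Gnas had the largest difference of the members between SUS and CON and did not pass. CON libraries held 7.35 over 11.6 to 27.2 CPM, SUS libraries 3.02 over 4.11 to 17.1 CPM and RES libraries 1.66 over 10.2 to 21.3 CPM. SUS libraries other than number 5 lay between 3.02 and 4.80 CPM, below every CON library, while library 5 lay within the CON range. Of the RES libraries 3 lay between 1.66 and 3.72 CPM and 3 between 16.7 and 21.3 CPM. The share of counts on the ribosomal RNA-like genes Gm23935 and Gm26917 moved with this split: it was 4.94 to 16.2% in the 3 high RES libraries and 1.60 to 2.504% in the 3 low ones. It was 18.8% in SUS library 5, against 1.29 to 8.61% in the other SUS and 0.739 to 8.03% in the CON libraries. SUS libraries 2 and 14, with shares of 7.86 and 8.61%, above that of RES library 12 (4.94%), held 3.82 and 3.89 CPM of Gnas. Its part in the Gnas values was not tested. SUS minus CON on the log2 scale was -1.17 ± 0.543 (adjusted p = 0.168, edgeR), and without SUS library 5 it was -1.82 and passed (adjusted p = 0.0228). Between RES and CON it was -0.29 ± 0.536 (adjusted p = 0.808), and between SUS and RES -0.87 ± 0.541 (adjusted p = 0.999). With the red cell covariate the SUS and RES differences from CON were -0.90 (adjusted p = 0.903) and 0.0052 (adjusted p = 0.999).

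Prkaca did not pass in either monocyte type. In Ly6C-high monocytes CON libraries held 24.9 over 25.6 to 32.2 CPM, SUS libraries 29.8 over 33.4 to 50.4 CPM and RES libraries 20.9 over 36.3 to 47.9 CPM. The ranges overlapped, and the log2 fold change was 0.41 ± 0.193 in SUS mice (adjusted p = 0.176) and 0.33 ± 0.193 in RES mice (adjusted p = 0.338, edgeR). In Ly6C-low monocytes the 4 CON libraries held 16.5, 18.1, 20.1 and 20.2 CPM, SUS libraries 21.5 over 24.5 to 30.8 CPM and RES libraries 17.7 over 21.3 to 25.2 CPM. There the lowest of the 6 SUS libraries exceeded the highest of the 4 CON libraries, while the log2 fold change of 0.41 ± 0.15 did not pass (adjusted p = 0.315). With the red cell covariate the SUS differences of Prkaca were 0.067 (adjusted p = 0.993) in Ly6C-high and 0.44 (adjusted p = 0.712) in Ly6C-low monocytes.

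The remaining 6 members in Ly6C-high monocytes lay at log2 fold changes between SUS and CON from -0.40 (Pde4d) to 0.49 (Crem), with edgeR adjusted p-values from 0.326 to 0.839. The values were -0.061 ± 0.119 for Arrb1, 0.11 ± 0.138 for Arrb2, -0.23 ± 0.143 for Adcy7 and -0.24 ± 0.222 for Pde4a. Crem stood at 0.49 ± 0.579. Pde4d, at -0.40 ± 0.958, had no read in SUS library 14 and RES library 18.

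**Figure D3:**
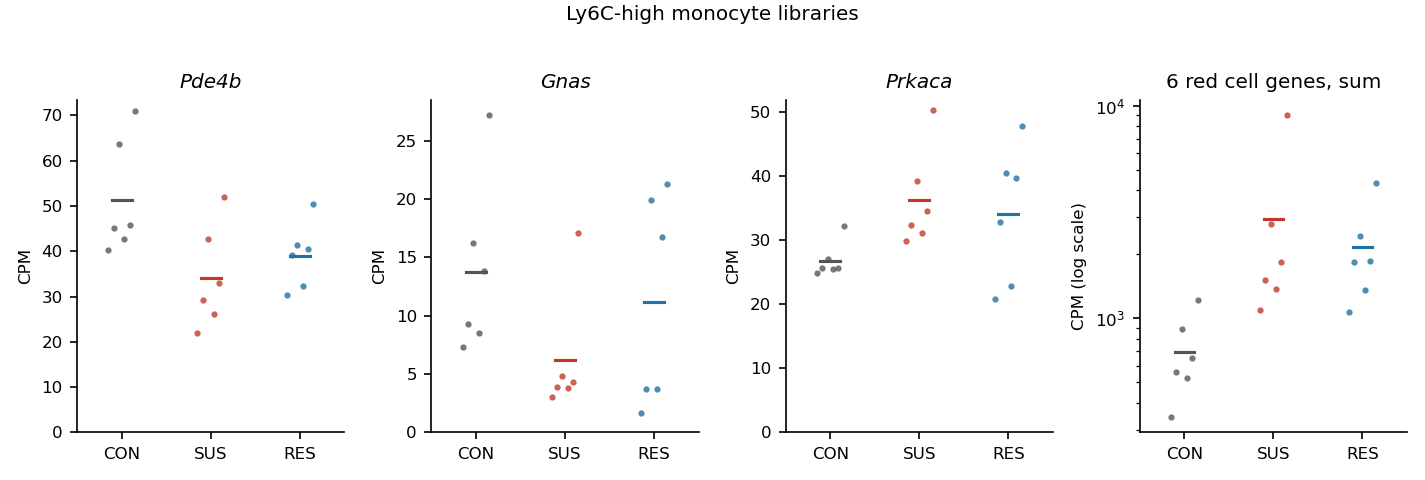
CPM of Pde4b, Gnas and Prkaca and the summed CPM of 6 red cell genes (log scale) in Ly6C-high monocytes, by condition. Points are libraries and bars are means. For Pde4b 4 of 6 SUS libraries and for Gnas 5 of 6 lie below all CON libraries, and the red cell sum is higher in SUS and RES libraries than in most CON libraries.

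In the other cell types no member passed. In Ly6C-low monocytes 0 of 9 passed between SUS and CON (1 at an unadjusted p under 0.05, Prkaca; 0 with DESeq2), where 0.241% of 19521 genes did, and log2 fold changes ran from -0.44 (Gnas) to 0.41 (Prkaca). Between RES and CON 0 of 9 passed (0 at an unadjusted p under 0.05, 0 with DESeq2), where 0.0256% of 19521 genes did, and log2 fold changes ran from -0.59 (Pde4d) to 0.37 (Crem). In B cells 0 of 9 passed between SUS and CON (0 at an unadjusted p under 0.05, 0 with DESeq2), where 0.00568% of 17620 genes did, and log2 fold changes ran from -0.22 (Arrb2) to 0.34 (Pde4d). Between RES and CON 0 of 9 passed (1 at an unadjusted p under 0.05, Prkaca; 0 with DESeq2), where 0% of 17620 genes did, and log2 fold changes ran from -0.37 (Prkaca) to 0.28 (Pde4a). In T cells 0 of 9 passed between SUS and CON (1 at an unadjusted p under 0.05, Pde4b; 0 with DESeq2), where 0.0424% of 18860 genes did, and log2 fold changes ran from -0.23 (Pde4b) to 0.21 (Gnas). Between RES and CON 0 of 9 passed (1 at an unadjusted p under 0.05, Pde4d; 0 with DESeq2), where 0% of 18860 genes did, and log2 fold changes ran from -0.25 (Pde4d) to 0.49 (Pde4a). The value of Pde4a became -0.54 without RES library 67. Between SUS and RES mice 0 of 9 passed in each of these 3 cell types (0 at an unadjusted p under 0.05, 0 with DESeq2), against 0% of all genes. Each 0% stands for 0 genes by edgeR, with 240 to 775 genes at an unadjusted p under 0.05 and 0 to 11 genes by DESeq2.

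Pde4b of T cells had an unadjusted p of 0.0265 in SUS mice. CON libraries held 116 over 128 to 142 CPM, SUS libraries 95.0 over 106 to 131 CPM and the 5 RES libraries 101, 107, 107, 123 and 133 CPM. The ranges overlapped, and the log2 fold change of -0.23 ± 0.0973 did not pass (adjusted p = 0.877, edgeR). In B cells Pde4b stood at 218 ± 15.7 CPM in CON, 230.5 ± 24.0 in SUS and 225 ± 15.1 in RES libraries, and in Ly6C-low monocytes at 109.7 ± 12.0, 109 ± 12.7 and 116 ± 15.7 CPM.

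**Figure D4:**
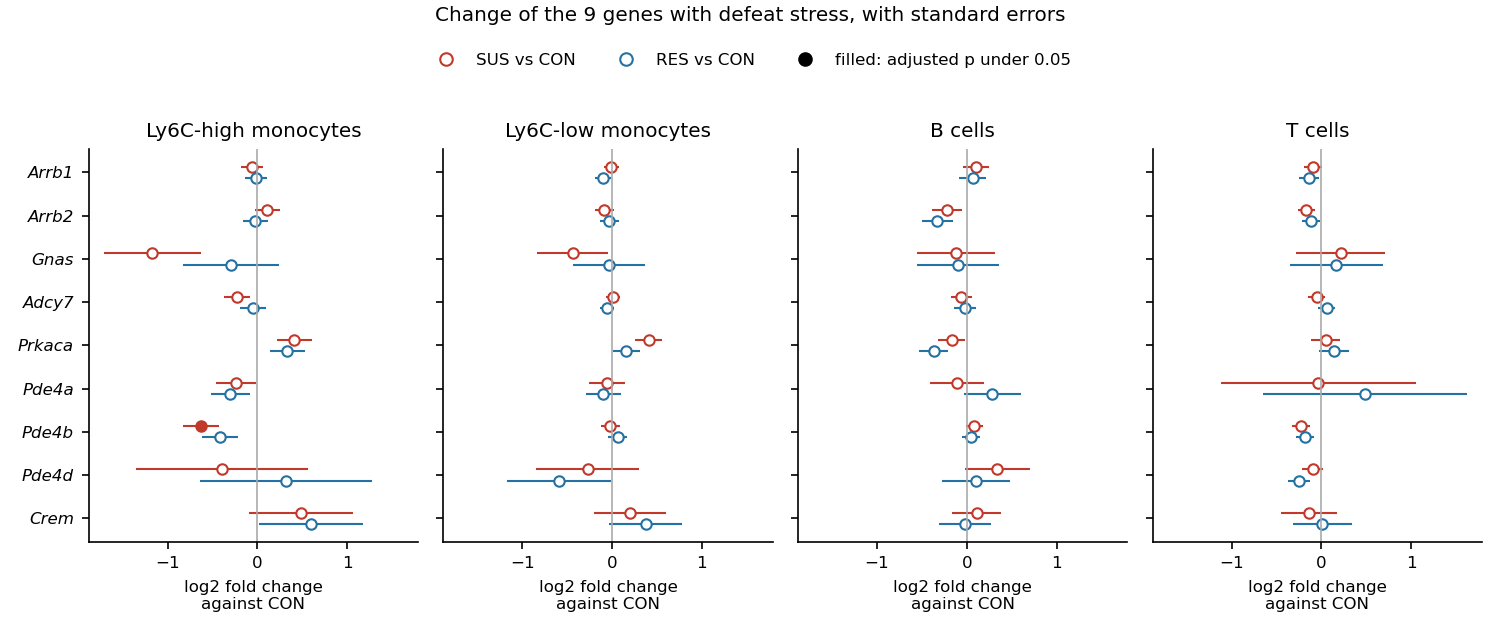
Log2 fold change of the 9 genes against CON for SUS (red) and RES (blue) mice in the 4 cell types, with standard errors. Filled points passed at an adjusted p under 0.05. The only filled point is Pde4b in Ly6C-high monocytes of SUS mice, at -0.63, and the widest bars belong to Pde4a in T cells and Pde4d in Ly6C-high monocytes.

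Whether the SUS difference itself differed between cell types was tested as an interaction over all 12 groups and 24248 genes. The SUS against CON log2 difference of Pde4b in Ly6C-high monocytes minus that in B cells was -0.67 ± 0.187 (adjusted p = 0.0216, edgeR). Pde4b was the 1 of 9 genes that passed, against 6.18% of all genes. Against Ly6C-low monocytes 0 of 9 passed (1 at an unadjusted p under 0.05, Pde4b at -0.58 ± 0.199, adjusted p = 0.142, edgeR; 0 with DESeq2), where 0.363% of all genes did. Against T cells 0 of 9 passed (0 at an unadjusted p under 0.05 by edgeR, Pde4b at -0.37 ± 0.186, adjusted p = 0.269; 0 with DESeq2), where 3.22% did. The call against B cells was lost without CON library 10 (-0.56, adjusted p = 0.0550) and without SUS library 14 (-0.57, adjusted p = 0.0627) of the Ly6C-high monocytes. It was also lost in a fit of only these 2 cell types (-0.69, adjusted p = 0.0685) and with libraries 52 and 70 included (-0.67, adjusted p = 0.0682). Without SUS library 51 of the B cells Prkaca passed as well.

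The third question was how the rest of the pathway stood in the same libraries. Of 74 further genes in 12 lists, 58 were tested in Ly6C-high monocytes, and 12 passed in SUS against CON mice, 5 upwards and 7 downwards, beside the 12.6% of all genes given above, with a median log2 fold change of -0.18 over the 58 against -0.05 over all genes. Between RES and CON mice 4 of the 58 passed, 2 in each direction, beside 4.97% of all genes. With the red cell level as a covariate none of the 12 SUS calls passed (edgeR, adjusted p from 0.317 to 0.962) and none of the 4 RES calls (adjusted p from 0.928 to 0.997). In Ly6C-low monocytes 1 of 62 passed between SUS and CON, where 0.241% of all genes did. By edgeR 0 of 57 passed for SUS against CON in B cells (6 at an unadjusted p under 0.05, 1 with DESeq2), where 0.00568% of all genes did, and 0 of 61 in T cells (5 at an unadjusted p under 0.05, 0 with DESeq2), where 0.0424% did.

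Among the 4 receptor kinases, which phosphorylate occupied receptors for arrestin to bind, Grk3 fell and Grk6 rose. Grk3 held 164 over 193 to 220.3 CPM in CON and 60.6 over 93.8 to 133 CPM in SUS libraries, which did not overlap (log2 fold change -1.05 ± 0.185, adjusted p = 0.00145). In RES libraries it held 90.02 over 115 to 194 CPM (-0.64 ± 0.184, adjusted p = 0.0434). Grk6 held 131 over 171 to 219 CPM in CON and 209 over 284 to 451 CPM in SUS libraries (0.85 ± 0.194, adjusted p = 0.00613), and 217 over 287 to 374 CPM in RES libraries (0.76 ± 0.194, adjusted p = 0.0281). In Ly6C-low monocytes Grk6 also rose in SUS mice, with 165 to 206 CPM in CON and 208 to 298 CPM in SUS libraries (0.46 ± 0.0949, adjusted p = 0.0344, edgeR). With the red cell covariate it was 0.46 (adjusted p = 0.328). The call was lost without any 1 of 8 of the 10 libraries, with adjusted p-values of up to 0.161.

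Among the tested G protein alpha subunits Gnai2, which inhibits adenylyl cyclase, rose, with 1018 to 1204 CPM in CON, 1307 to 2466 CPM in SUS and 1273 to 1959 CPM in RES libraries (0.58 ± 0.148, adjusted p = 0.0126 in SUS and 0.53 ± 0.148, adjusted p = 0.0393 in RES mice). Neither stressed group overlapped with CON. Of the protein kinase A subunits and inhibitors 1 of 7 tested passed, where 12.6% of all genes did. This was the inhibitor Pkib (11.4 to 18.6 CPM in CON, 13.2 to 51.3 CPM in SUS libraries, 1.04 ± 0.266, adjusted p = 0.0122).

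Of the 7 anchoring proteins tested, which hold protein kinase A at its targets, 4 passed, where 12.6% of all genes did. The lists are small and differ in size, so their counts do not rank them. Akap9 fell from 161 to 281 CPM in CON to 54.7 to 116 CPM in SUS libraries (-1.13 ± 0.198, adjusted p = 0.00145). In RES libraries Akap9 held 68.3 to 145 CPM (-0.96 ± 0.197, adjusted p = 0.0142), and neither stressed group overlapped with CON. Akap11 fell from 39.6 to 63.5 CPM in CON to 8.71 to 35.2 CPM in SUS libraries (-0.86 ± 0.253, adjusted p = 0.0266), and Akap8 fell from 90.6 to 129 CPM in CON to 43.7 to 95.9 CPM in SUS libraries (-0.56 ± 0.151, adjusted p = 0.0174). Akap1 rose from 1.12 to 5.88 CPM in CON to 5.90 to 19.9 CPM in SUS libraries (1.46 ± 0.45, adjusted p = 0.0346). Among the other phosphodiesterases Pde1b fell from 23.2 to 45.0 CPM in CON to 12.0 to 33.0 CPM in SUS libraries (-0.87 ± 0.265, adjusted p = 0.0327). Of the CREB family and its coactivators Creb1 fell from 102 to 201 CPM in CON to 45.8 to 131 CPM in SUS libraries (-0.68 ± 0.206, adjusted p = 0.0308) and Crebbp fell from 395 to 440.0 CPM in CON to 248 to 379 CPM in SUS libraries (-0.49 ± 0.115, adjusted p = 0.00754).

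Of 11 tested genes known to be induced by cAMP, 1 passed, beside 12.6% of all genes. It was Thbs1, at 33.6 to 60.4 CPM in CON and 30.2 to 142 CPM in SUS libraries (0.99 ± 0.286, adjusted p = 0.0252). Thbs1 is also known from platelets, and the summed level of 5 platelet genes was 5.65 to 10.0 CPM in CON and 5.66 to 50.5 CPM in SUS libraries of these cells, whose part in this difference was not tested. The median of the 11 was 0.017 on the log2 scale. In the interaction test the 12 SUS differences had edgeR adjusted p-values of 0.105 (Gnai2) to 0.697 (Grk3) against Ly6C-low monocytes, where 0.363% of genes passed. Against B cells only Grk6, Gnai2 and Akap9 passed (adjusted p = 0.00201, 0.00779 and 0.00775, edgeR), where 6.18% of genes did. Against T cells only Grk6, Akap9 and Pde1b passed (adjusted p = 0.0217, 0.0272 and 0.0269, edgeR), where 3.22% did. Of the 12 calls between SUS and CON, 6 (Grk3, Grk6, Gnai2, Pkib, Akap9 and Crebbp) held without each of the 12 CON and SUS libraries in turn, and 6 were lost without at least 1. Akap1 was lost without CON 1, SUS 2, CON 7, SUS 14 or CON 16, at adjusted p-values of 0.0531 to 0.119. Akap8 was lost without CON 16, at an adjusted p of 0.0679. Akap11 was lost without CON 1, SUS 2, CON 4 or CON 16, at adjusted p-values of 0.0515 to 0.0736. Pde1b was lost without CON 1, SUS 2, SUS 8, CON 10, CON 13, SUS 14 or CON 16, at adjusted p-values of 0.0504 to 0.0812. Creb1 was lost without CON 1, CON 4, SUS 11 or CON 16, at adjusted p-values of 0.0563 to 0.0918. Thbs1 was lost without CON 1, CON 4, SUS 8, CON 10, SUS 14 or SUS 17, at adjusted p-values of 0.0540 to 0.0777. Of the 4 calls between RES and CON that of Akap9 held without each library, and those of Grk3, Grk6 and Gnai2 were lost in 10, 6 and 9 of the 12 fits with 1 library left out, at adjusted p-values of up to 0.121, 0.0849 and 0.108.

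**Figure D5:**
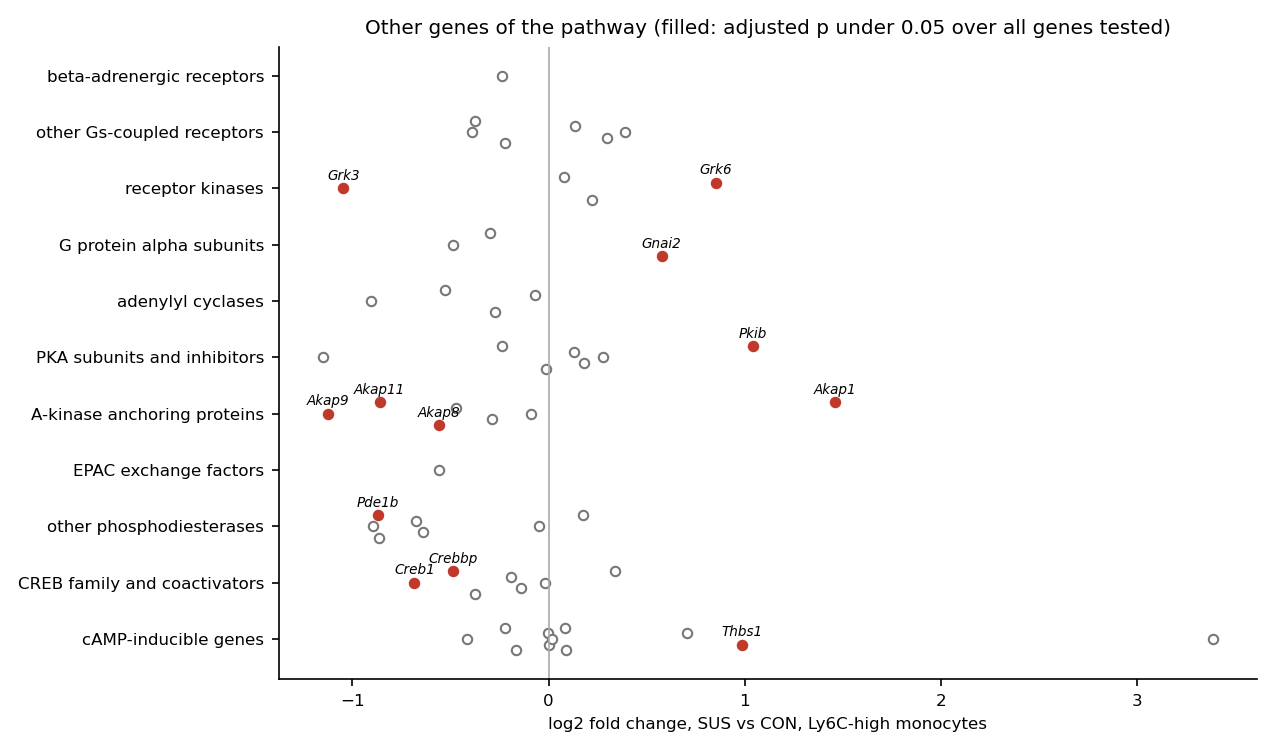
Log2 fold change of SUS against CON in the Ly6C-high monocytes of the 58 tested genes of the 12 lists, 1 row per list with tested genes. Filled, named points passed at an adjusted p under 0.05, 5 to the right of 0 and 7 to the left. Open points did not pass.

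Last, genes were ranked by how closely their level followed that of a member over the 12 group means, as Pearson's r of log2(CPM + 0.5) over 8132 or 8133 protein-coding genes with a mean of at least 10 CPM. The 12 points are 4 cell types in 3 conditions, and all genes of a point share its libraries. The genes nearest to Arrb1 were Csgalnact2, Cd68 and Sowahc (r of 0.998 to 0.999). Arrb2 was followed most closely by Thyn1, Dnajc3 and Vps26b (0.982 to 0.99). Gnas was followed most closely by Dhx57, Aff4 and Mast4 (0.98 to 0.983). The genes nearest to Adcy7 were Cyth3, Ttc7b and Abcg3 (r of 0.988 to 0.995). Prkaca was followed most closely by Aspscr1, Syf2 and Poldip3 (0.94 to 0.947). Pde4a was followed most closely by Alcam, Apoe and Prkcd (0.994 to 0.997). The genes nearest to Pde4b were Cd72, Gpsm1 and Arid3b (r of 0.987 to 0.989). Pde4d was followed most closely by Plcxd2, Lrig1 and F2rl1 (0.993 to 0.994). Crem was followed most closely by Ess2, Adprhl2 and Sash3 (0.957 to 0.963).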

How the data were processed

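RNA of sorted cells was sequenced after a stranded total RNA library kit for low input. The authors aligned reads to mm10 with HISAT2 and deposited whole-number read counts per Ensembl gene made with htseq-count, whose strand setting is not given in the sources used here. Of 52636 gene identifiers, 52403 matched the annotation. Libraries 52 and 70 were left out. CPM were scaled by TMM factors over the 68 remaining libraries, and CPM per kb used the union of exons. Tests were edgeR 4.0.16 quasi-likelihood fits (R 4.3.3) after the default filter on low counts, with Benjamini-Hochberg adjustment over all genes tested and a threshold of 0.05: 1 fit per cell type over CON, SUS and RES, 1 fit of the CON libraries over 4 cell types, and 1 fit of 12 group means for interactions. SE was taken from the fold change and the F statistic of each test. The fits were also run on counts simulated with the same dispersion for every gene and no red cell differences between libraries. The outcome is not given here, and these settings are simpler than the real data. Alternatives were DESeq2 1.42.0, its size factors in edgeR, no filter, at least 10 counts in every library, only the groups compared, 50 mitochondrial, hemoglobin and ribosomal RNA-like genes removed, a red cell covariate, libraries 52 and 70 included, and each library left out. No pair of libraries in a group agreed within sampling noise. Named genes were all 9 members, the pathway genes that passed in a stress comparison of a cell type, the beta receptors, the highest gene of each list and the 3 genes most like each member. Some of these genes are not reported here. The members and lists were chosen with earlier results of these data known.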

Additional observations from a re-analysis of the deposited data

Results flagged for a closer look

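In 6 of 108 sets of values (a member in a group), 1 library lay far from the others of its group, and at the nominal level of the test chance flags about 1 in 20. Gnas stood at 17.1 CPM in SUS library 5 of Ly6C-high monocytes, where the next library held 4.80 CPM. Prkaca stood at 32.2 CPM in CON library 16 of Ly6C-high monocytes (next 27.2 CPM) and at 30.9 CPM in CON library 59 of T cells (next 23.0 CPM). Pde4a stood at 25.5 CPM in RES library 31 of Ly6C-low monocytes (next 18.5 CPM). Crem stood at 5.86 CPM in RES library 26 of Ly6C-low monocytes (next 4.17 CPM) and, at the low end, at 3.48 CPM in SUS library 48 of B cells (next 6.05 CPM). The difference between SUS and CON mice differed between Ly6C-high monocytes and B cells for Pde4b, by -0.67 on the log2 scale in the interaction test. The left-out libraries held markers of a cell type other than the labelled one, 412 CPM of Cd3e in library 52 and 1417 CPM of Cd79a in library 70.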

How the results depend on the processing

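The count of members that passed for SUS against CON in the Ly6C-high monocytes, 1, was 0 with no filter on low counts, with only the 2 groups compared, with the red cell covariate and with an added absolute log2 fold change over 1, and it ranged from 0 to 2 with 1 library left out. The count for the interaction with B cells, 1, was 0 with only the 2 cell types compared and with libraries 52 and 70 included, and it also ranged from 0 to 2. Signs turned for some differences that did not pass. In Ly6C-high monocytes of SUS mice Arrb1 ranged from -0.11 to 0.022 and Arrb2 from -0.0099 to 0.15 with 1 library left out, and Arrb2 was -0.083 with the red cell covariate. In RES mice Gnas was 0.0052 with that covariate, and Pde4a ranged from -0.54 to 0.92 in T cells. The cause was not tested. Over all genes the SUS calls of Ly6C-high monocytes went from 2139 to 1 with the red cell covariate, and the RES calls from 842 to 0 with it, 1544 with DESeq2 and 1646 with only the 2 groups. With 1 library left out the SUS calls of Ly6C-high monocytes ranged from 1412 to 2742 and the RES calls from 108 to 1353, and the SUS calls of Ly6C-low monocytes from 9 to 86. In Ly6C-low monocytes the 47 SUS calls became 203 with DESeq2, 81 with no filter, 9 with only the 2 groups and 3 with the covariate, and the 5 RES calls 140, 23, 16 and 0. In T cells the 8 SUS calls became 84 with DESeq2, 20 with no filter, 17 with at least 10 counts in every library, and 0 with the covariate or with libraries 52 and 70. No paired analysis was possible because the library numbers do not repeat across groups. Low counts limit Pde4a in T cells, Pde4d outside T cells and Crem.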
